A study of Mus musculus with 47 samples.

Results

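Evx1, Fgf8, Eomes, Mixl1, Foxa2 and Mesp1, genes known from the primitive streak, were followed across embryonic stem (ES) cell lines that lack transcription factors of the TCF/LEF family. The 6 genes were taken as every probe that carries 1 of these symbols alone, which gave 8 of 25697 probes and 6 of the 16593 genes with a named probe. Evx1, Fgf8, Eomes and Mesp1 have 1 probe each, and Mixl1 and Foxa2 have 2 each. Expression was measured on 47 Illumina mouse arrays in 17 groups, 15 of them with 3 arrays and 2 with 1 array. The mutant mouse lines were 4XKO, without Tcf7, Tcf7l1, Tcf7l2 and Lef1, 3XKO, without Tcf7, Tcf7l2 and Lef1, and KO, without Tcf7l1, and they were set against wild-type (WT) cells. Cells called EpiLC+CH spent 3 days in 12 ng/mL Fgf2 and a further 24 hours with 3 uM CHIR99021, an inhibitor of the kinase Gsk3. EpiLC, the epiblast-like cells, had 12 ng/mL Fgf2 alone, for a time not given in the labels, so days of culture and CHIR99021 cannot be told apart between them. ESC, the starting cells, grew in 1 uM PD0325901 (a MEK inhibitor), 3 uM CHIR99021 and 1000 U/mL LIF. WT cells were also kept in 12 ng/mL Fgf2 and 3 uM CHIR99021 together (ContinuedCH). A separate set of 8 WT arrays held LIF+PD+24hrCH (24 hours of LIF and PD0325901, then 48 hours in which CHIR99021 was used, 3 arrays), LIF+PD (3 arrays), PD+CHIR (1 array) and LIF+CHIR (1 array), at the doses given above. Each genotype came from 1 line, so its effect and any other property of that line cannot be told apart. Unless stated otherwise, the adjusted p-values use the spread between replicate arrays, pooled over the groups of a set. The sample titles number the replicates without saying whether they were separate cultures.

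The primitive streak is the furrow at the posterior of the gastrulating embryo through which epiblast cells leave to form mesoderm and endoderm. Wnt ligands act there by stabilising beta-catenin, which enters the nucleus and binds TCF/LEF proteins on DNA, and Gsk3 inhibitors such as CHIR99021 stabilise beta-catenin without a ligand. Tcf7l1 is known mainly as a repressor in ES cells, while Tcf7 and Lef1 are known mainly as activators with beta-catenin. Evx1 encodes a homeobox factor of the posterior streak and Fgf8 a secreted ligand that streak cells need to move away from the midline. Eomes and Mixl1 encode a T-box and a homeobox factor of mesendoderm, Foxa2 a forkhead factor of the anterior streak, node and endoderm, and Mesp1 a basic helix-loop-helix factor of newly formed mesoderm.

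The RefSeq promoters below show where the core letters that TCF/LEF proteins bind do or do not lie close to the start of these genes, since the lines differ in those proteins. Promoter windows of 300 bases (250 before to 50 after a start site, build GRCm38.p6) were matched for 4 of the 6 genes. Evx1 lies at chr6:52313248-52313547 on the plus strand, Eomes at chr9:118477939-118478238 on the plus strand and Mesp1 at chr7:79793541-79793840 on the minus strand. Capitals mark CTTTG, or CAAAG where it lies on the other strand.
Evx1: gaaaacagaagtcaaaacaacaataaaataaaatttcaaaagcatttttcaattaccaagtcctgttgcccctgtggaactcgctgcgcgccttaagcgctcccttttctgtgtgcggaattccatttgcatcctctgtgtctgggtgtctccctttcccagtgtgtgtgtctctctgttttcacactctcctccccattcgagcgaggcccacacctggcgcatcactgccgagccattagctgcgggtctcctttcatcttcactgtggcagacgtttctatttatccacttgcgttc
Eomes: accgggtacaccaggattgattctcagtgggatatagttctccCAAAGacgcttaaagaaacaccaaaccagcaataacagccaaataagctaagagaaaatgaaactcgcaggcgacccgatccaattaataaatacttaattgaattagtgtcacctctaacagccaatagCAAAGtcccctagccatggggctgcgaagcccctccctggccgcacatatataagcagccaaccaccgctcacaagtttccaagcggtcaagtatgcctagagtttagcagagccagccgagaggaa
Mesp1: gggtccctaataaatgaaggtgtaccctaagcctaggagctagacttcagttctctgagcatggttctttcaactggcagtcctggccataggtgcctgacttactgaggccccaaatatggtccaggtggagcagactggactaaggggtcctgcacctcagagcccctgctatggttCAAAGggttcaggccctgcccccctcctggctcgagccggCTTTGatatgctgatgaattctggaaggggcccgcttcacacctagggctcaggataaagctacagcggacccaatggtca
Both strands were searched for this core, and 53.9% of all 32851 promoter windows of this length held at least 1 match, so that a match is common. The Evx1 window held 0 matches, the Eomes window 2 and the Mesp1 window 2. Foxa2 has 3 start sites in the table, and their windows held 4, 0 and 1. Fgf8 and Mixl1 were not matched. A match describes letters within this window only.

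The deposited values are intensities from which a background had been subtracted, so they can be negative, and a value counted as background when it was below the size of the lowest value of its set, 13.6 in the set of 39 arrays and 14.3 in the set of 8. Between 44.5% and 44.6% of probes lay above the limit in the 39 arrays, and 42.7% to 42.8% in the 8. Replicates correlated at r = 0.960 to 0.985 in the 39 arrays and 0.962 to 0.969 in the 8, on log2 values with a floor of 1, across probes that are not independent. Tcf7l1, deleted in KO and 4XKO, averaged 704 ± 34.8 in KO EpiLC and 836 ± 107 in 4XKO EpiLC, against 2018 ± 22.0 in WT EpiLC (SD, n = 3 each). Lef1, deleted in 4XKO and 3XKO, averaged 6.33 ± 2.34 in 4XKO EpiLC and 27.6 ± 4.57 in 3XKO EpiLC, against 68.6 ± 5.11 in WT EpiLC, and was called lower in both. It averaged 7.47 ± 0.321 in KO EpiLC too, where it was not deleted, so its low level does not check the deletion. Tcf7l2, deleted in 4XKO and 3XKO, was not lower, at 43.0 ± 11.7 in 4XKO EpiLC and 49.2 ± 3.57 in 3XKO EpiLC, against 42.1 ± 6.81 in WT EpiLC, and no probe named Tcf7 was used here. The deleted exons are not given in the labels, and a probe outside the deleted part checks nothing, so the Tcf7l2 level leaves that deletion unchecked. Markers of the labelled states were compared too. The summed intensity of 7 naive ES cell markers was 13786 to 14296 in KO EpiLC and 13844 to 14075 in 4XKO EpiLC, against 2061 to 2220 in WT EpiLC, and all 7 were higher in each of these mutant lines than in WT. The 5 formative markers summed to 3482 to 3637 in KO EpiLC and 5295 to 5757 in 4XKO EpiLC, against 19701 to 21904 in WT EpiLC, with all 5 lower in both. In 3XKO EpiLC the naive markers summed to 3969 to 4536, also with all 7 higher than in WT, and the formative ones to 18292 to 20583, with 0 called. After CHIR99021 the naive sum was 10329 to 11333 in 3XKO EpiLC+CH, against 4791 to 5217 in WT EpiLC+CH. Every mutant line labelled EpiLC therefore carried more naive marker signal than WT EpiLC, and each comparison of a line with WT below runs alongside that difference, whose part in it was not tested.

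Of the 8 probes, those of Evx1 (ILMN_2731113), Fgf8 (ILMN_2721370) and Eomes (ILMN_1251446) lay above the background limit in at least 1 array, and the 5 of Mixl1 (ILMN_1245893 and ILMN_2920173), Foxa2 (ILMN_1229325 and ILMN_1246216) and Mesp1 (ILMN_2687727) did so in none of the 47. Over the whole array, 39.1% of probes stayed below the limit in all arrays, against 62.5% of these 8. Evx1 was above the limit in 30 of the 39 arrays and in 8 of the other 8, Fgf8 in 6 and 7, and Eomes in 26 and 1. In these mixtures of whole cultures, fewer cells that express a gene and less RNA per cell cannot be told apart.

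**Figure D1:**
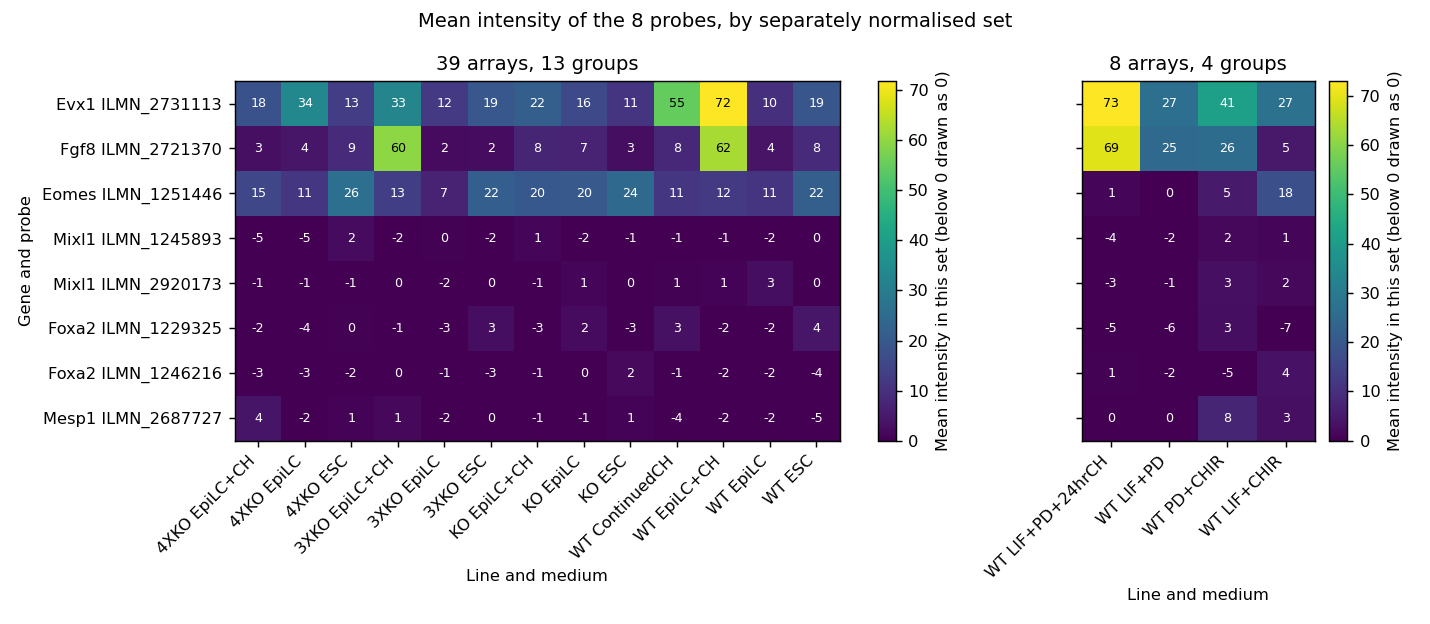
Mean intensity of each of the 8 probes (rows) in each group (columns), with the rounded mean written in each cell. The left panel holds the 13 groups of the 39 arrays and the right panel the 4 groups of the 8 arrays, each with its own colour scale in intensity units starting at 0, since the sets were normalised apart. Evx1 and Fgf8 hold the brightest cells of each panel, and the 5 lower rows stay below the background limits of 13.6 and 14.3.

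Evx1 and Fgf8, both below background in WT EpiLC, were higher in WT EpiLC+CH, and no other of the 6 passed the test. Evx1 had 67.0, 71.5 and 77.0 in the WT EpiLC+CH arrays, against 11.1, 9.5 and 8.9 in WT EpiLC. All 3 treated arrays lay above the limit and all 3 untreated ones below it. That is a rise of at least 5.27-fold, or 2.88 ± 0.26 on the log2 scale (SE, limma over all probes, adjusted p = 3.57e-09). Fgf8 had 57.7, 72.9 and 56.8 in WT EpiLC+CH, against 6.8, 3.3 and 1.5 in WT EpiLC. The groups did not overlap, and the rise was at least 4.56-fold (adjusted p = 3.75e-05). On the log2 scale it was 4.27 ± 0.65 with values floored at 1 and 2.19 with values floored at the background limit, so only the bound is read as a size for Fgf8. The 2 of 6 genes called here compare with 6.51% of all probes called in this contrast, 3.26% of them higher. Eomes averaged 12.2 ± 2.15 in WT EpiLC+CH and 10.9 ± 4.46 in WT EpiLC (SD, n = 3 each), a difference of 0.23 on the log2 scale with a 95% interval from -0.65 to 1.12 (adjusted p = 0.949).

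**Figure D2:**
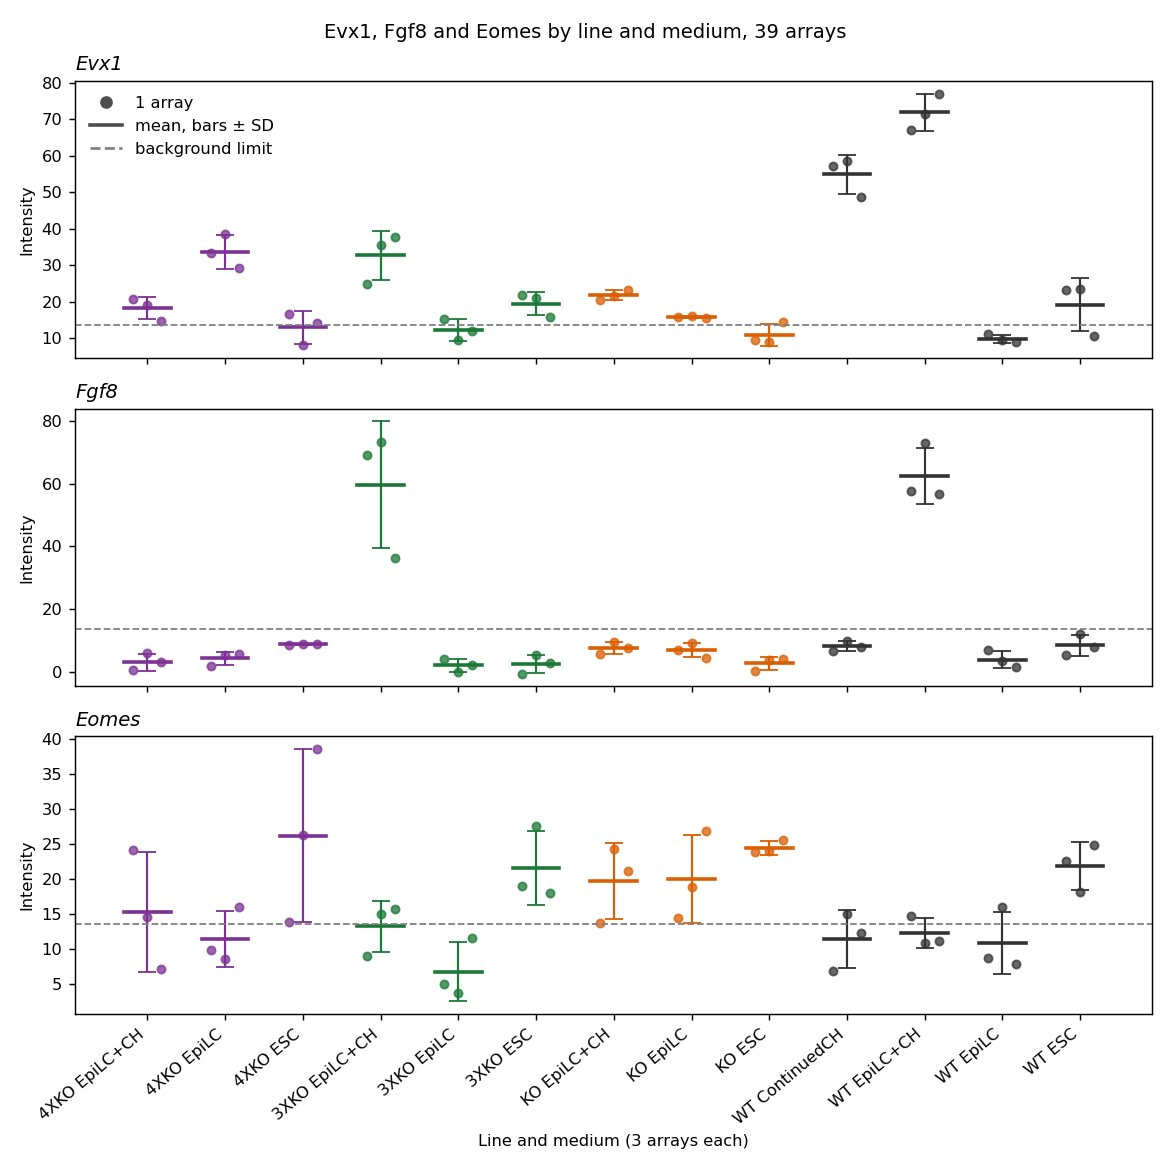
Intensity of Evx1, Fgf8 and Eomes (vertical axes) in the 13 groups of the 39 arrays (horizontal axis), with a point per array, the mean as a bar, the SD as whiskers (n = 3) and the background limit of 13.6 as a dashed line. Evx1 is graded across groups between 71.8 in WT EpiLC+CH and 9.83 in WT EpiLC, Fgf8 stands above the limit in WT EpiLC+CH and 3XKO EpiLC+CH alone, and Eomes is spread around the limit.

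The same comparison was made in the 3 mutant lines. In KO cells, Evx1 had 20.5, 21.4 and 23.2 in EpiLC+CH, against 15.7, 16.1 and 15.6 in EpiLC. The KO groups did not overlap, yet the difference of 0.46 on the log2 scale (95% interval -0.07 to 0.99) did not pass the test (adjusted p = 0.623), and 0 of 6 genes did, against 0.934% of all probes. Fgf8 stayed below background in KO at 5.7, 9.5 and 7.5 in EpiLC+CH, against 7.0, 9.2 and 4.5 in EpiLC. In 3XKO cells both genes rose. Evx1 had 24.9, 35.4 and 37.6 in 3XKO EpiLC+CH, against 15.3, 9.4 and 12.0 in 3XKO EpiLC, a rise without overlap of 1.42 ± 0.26 on the log2 scale (adjusted p = 0.00039). Only 1 of the 3 untreated arrays was above the limit, and with values floored at the limit the difference was 1.18. Fgf8 had 69.1, 73.5 and 36.4 in 3XKO EpiLC+CH, against 4.2, 0.0 and 2.1 in 3XKO EpiLC, a rise of at least 4.19-fold (adjusted p = 6.35e-06). One treated array, at 36.4, stood below the other 2, giving 59.7 ± 20.3 (SD, n = 3), and all 3 lay above the untreated ones. These 2 of 6 genes compare with 5.85% of all probes, and neither passed when the spread was taken from the 3XKO arrays alone (adjusted p = 0.0987 for Evx1 and 0.0504 for Fgf8).

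In 4XKO cells Evx1 was lower with CHIR99021 in every array, short of the threshold. It had 20.6, 19.0 and 14.8 in 4XKO EpiLC+CH, against 33.4, 38.4 and 29.1 in 4XKO EpiLC. The treated arrays lay below the untreated ones without overlap, and the difference of -0.90 on the log2 scale (95% interval -1.43 to -0.37) did not pass at an adjusted p of 0.0661. It did pass with values floored at the background limit (adjusted p = 0.0033) and without the dimmest probes (adjusted p = 0.0494). Fgf8 was below background on both sides, at 0.4, 5.8 and 3.0 in 4XKO EpiLC+CH, against 1.8, 5.3 and 5.7 in 4XKO EpiLC. None of the 6 genes was called in 4XKO, where 2.16% of all probes were. The number of probes behind these backgrounds depends on single arrays: 555 in 4XKO became 182 without 4XKO EpiLC replicate 2, 266 without its replicate 3, and 246 and 330 without 4XKO EpiLC+CH replicates 2 and 3. In KO 240 became 114 and 129 without KO EpiLC replicates 2 and 3, and 151 and 113 without KO EpiLC+CH replicates 2 and 3.

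**Figure D3:**
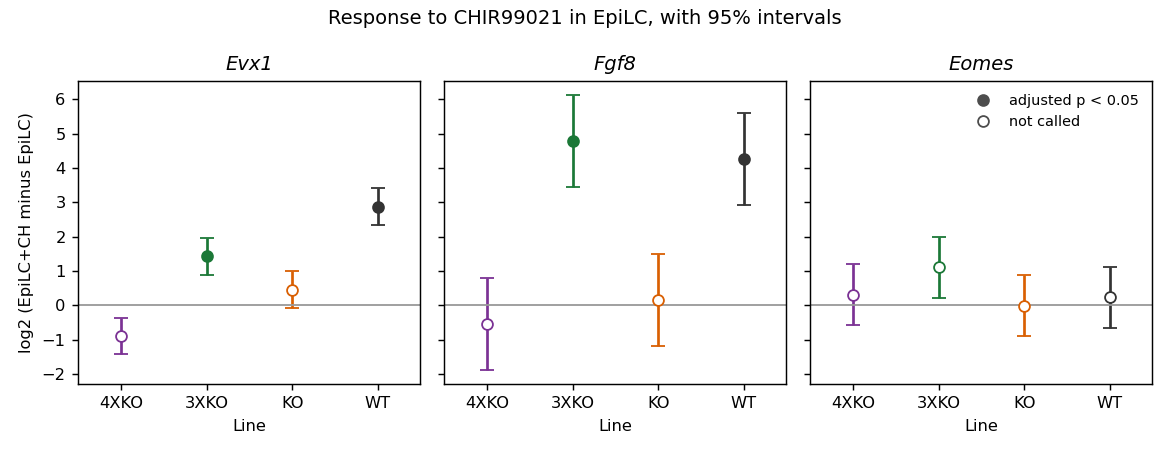
Response to CHIR99021 (log2 of EpiLC+CH minus EpiLC, vertical axis) of Evx1, Fgf8 and Eomes in the 4XKO, 3XKO, KO and WT lines, with 95% intervals and filled points where the adjusted p was under 0.05. Evx1 runs from -0.90 in 4XKO to 2.88 in WT, Fgf8 is filled in 3XKO at 4.79 and in WT at 4.27, and no Eomes point is filled.

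The difference between the lines' responses was then tested. Evx1 and Fgf8 both responded less in KO and in 4XKO than in WT, and the response of 3XKO was not called different for either gene. For Evx1 the response was smaller than in WT by 2.42 ± 0.37 on the log2 scale in KO (adjusted p = 8.15e-05) and by 3.77 ± 0.37 in 4XKO (adjusted p = 4.03e-08). With values floored at the background limit these Evx1 differences were -1.94 in KO and -3.29 in 4XKO. For Fgf8 the difference from WT was -4.11 ± 0.92 in KO (adjusted p = 0.0103) and -4.81 ± 0.92 in 4XKO (adjusted p = 0.00141), and -2.19 in both lines with values floored at the background limit. With the spread of the 4XKO and WT arrays involved, the 4XKO difference for Fgf8 just missed the threshold (adjusted p = 0.0512). Each of these 2 contrasts called 2 of 6 genes, against 2.04% of all probes for KO and 4.34% for 4XKO. The Fgf8 response of 3XKO was not found to differ from WT, by 0.52 on the log2 scale with a wide 95% interval from -1.37 to 2.42 (adjusted p = 1). For Evx1 the 3XKO minus WT difference was -1.45 (95% interval -2.20 to -0.70), which missed the threshold (adjusted p = 0.0619) in a contrast that called 0.693% of all probes and 0 of the 6 genes, and passed it with values floored at the background limit (adjusted p = 0.00256). Between the mutant lines, the Fgf8 response was larger in 3XKO than in KO by 4.63 ± 0.92 (adjusted p = 0.00303) and smaller in 4XKO than in 3XKO by 5.33 ± 0.92 (a difference of -5.33, adjusted p = 0.000456). Evx1 differed between 4XKO and 3XKO (-2.32 ± 0.37, adjusted p = 0.000129, or -2.08 with values floored at the limit) but not past the threshold between 3XKO and KO (0.97 ± 0.37, adjusted p = 0.253). Of all probes, 2.29% were called between the 3XKO and KO responses and 3.71% between the 4XKO and 3XKO responses. These contrasts between mutant lines were added after the values had been seen.

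Levels after treatment were compared line against line. In EpiLC+CH, Evx1 averaged 18.1 ± 3.00 in 4XKO, 32.6 ± 6.79 in 3XKO and 21.7 ± 1.37 in KO, against 71.8 ± 5.01 in WT (SD, n = 3 each). It was 3.99-fold lower than WT in 4XKO (adjusted p = 7.68e-07), 2.23-fold lower in 3XKO (adjusted p = 0.00139) and 3.31-fold lower in KO (adjusted p = 6.80e-06), with no overlap in any line. Fgf8 was at least 4.56-fold lower than WT in 4XKO (adjusted p = 3.74e-06) and in KO (adjusted p = 0.000693). In 3XKO it averaged 59.7 ± 20.3, against 62.5 ± 9.05 in WT, a difference of -0.12 on the log2 scale with a 95% interval from -1.46 to 1.22. The genes called were 3 of 6 for 4XKO (Evx1, Fgf8 and, below background, Mesp1), 1 for 3XKO and 2 for KO, against 20.6%, 17.6% and 21.1% of all probes. Compared with 3XKO, 4XKO was 1.79-fold lower for Evx1 (adjusted p = 0.0195) and at least 4.19-fold lower for Fgf8 (adjusted p = 6.55e-06), 2 of 6 genes against 19.8% of all probes. Against KO the 4XKO level of Evx1 differed by -0.27 on the log2 scale (95% interval -0.80 to 0.26), and 0 of 6 genes were called, against 5.62% of all probes. The Evx1 difference from 3XKO did not pass without 3XKO EpiLC+CH replicate 2 (adjusted p = 0.0707), without its replicate 3 (0.0932) or without 4XKO EpiLC+CH replicate 3 (0.102), nor with the spread of these 6 arrays alone (adjusted p = 0.0887).

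In EpiLC, cultured without CHIR99021, Evx1 stood above background in all 3 arrays of 4XKO and all 3 of KO. It was highest in 4XKO. It had 33.4, 38.4 and 29.1 in 4XKO EpiLC, against 11.1, 9.5 and 8.9 in WT EpiLC, at least 2.46-fold higher (1.77 ± 0.26 on the log2 scale, adjusted p = 4.12e-06). This was the 1 gene of the 6 called between 4XKO and WT EpiLC, where 20.0% of all probes were called. KO EpiLC had 15.7, 16.1 and 15.6, and 4XKO was 2.12-fold above it (adjusted p = 0.0116, a contrast added after the values had been seen, with 3.96% of all probes called). This difference missed the threshold without 4XKO EpiLC replicate 2 (adjusted p = 0.0692) and with the spread of these 6 arrays alone (adjusted p = 0.0510). KO EpiLC and WT EpiLC did not overlap for Evx1, but their difference of 0.69 was not called (adjusted p = 0.0555), and 3XKO EpiLC overlapped WT EpiLC. In neither of these 2 comparisons was any of the 6 genes called, against 21.8% of all probes for KO and 18.8% for 3XKO.

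The step from ESC to EpiLC moved Evx1 up in 4XKO and down in WT. In 4XKO it had 33.4, 38.4 and 29.1 in EpiLC, against 16.7, 8.0 and 14.2 in ESC, a rise of 1.43 on the log2 scale, or 1.18 with values floored at the limit since 1 ESC array was below it (adjusted p = 8.83e-05), that missed the threshold when the spread came from these 6 arrays alone (adjusted p = 0.0582). In WT it had 11.1, 9.5 and 8.9 in EpiLC, against 23.1, 23.5 and 10.7 in ESC, a fall of at least 1.32-fold (adjusted p = 0.0086). The third WT ESC array lay within the EpiLC range, and without WT ESC replicate 1 or replicate 2 the fall was not called (adjusted p = 0.0698 and 0.0743), nor was it with the spread of these 6 arrays alone (adjusted p = 0.189). In 3XKO the fall of 0.68 on the log2 scale passed narrowly (adjusted p = 0.048, and 0.131 with the spread of these 6 arrays alone), and in KO the difference of 0.57 was not called (adjusted p = 0.136). The 4XKO change exceeded the WT change by 2.31 ± 0.37 (adjusted p = 2.35e-05, with 14.4% of all probes called), another contrast added after the values had been seen. With values floored at the limit this excess was 1.69. Called genes numbered 1 of 6 in 4XKO, 2 in 3XKO, 0 in KO and 1 in WT, against 20.9%, 27.8%, 20.4% and 30.0% of all probes, shares that lie near the background. In ESC itself no gene of the 6 was called in 4XKO, 3XKO or KO against WT, where 5.65%, 14.2% and 9.39% of all probes were.

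With CHIR99021 in the medium throughout, Evx1 and Fgf8 parted. Evx1 had 57.3, 58.6 and 48.7 in WT ContinuedCH, against 67.0, 71.5 and 77.0 in WT EpiLC+CH. It was at least 4.02-fold above WT EpiLC (2.48 ± 0.26 on the log2 scale, adjusted p = 1.20e-08) and, although the groups did not overlap, not called against EpiLC+CH (-0.39, 95% interval -0.92 to 0.14, adjusted p = 0.386). Fgf8 had 6.5, 9.8 and 8.0 in WT ContinuedCH, all below background, against 57.7, 72.9 and 56.8 in WT EpiLC+CH. That is at least 4.56-fold lower (adjusted p = 0.0013). Of the 6 genes 1 was called in each contrast, against 19.2% of all probes for ContinuedCH minus EpiLC and 16.8% for ContinuedCH minus EpiLC+CH. Naive markers summed to 14290 to 14529 in ContinuedCH, against 4791 to 5217 in EpiLC+CH, with all 7 higher, and formative markers to 5175 to 5405, against 13524 to 13808, with all 5 lower. The part of that shift in the Fgf8 difference was not tested.

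In the separate set of 8 WT arrays, both genes were above background already without CHIR99021. Evx1 had 75.8, 83.4 and 59.7 in LIF+PD+24hrCH, against 35.3, 21.7 and 23.1 in LIF+PD. Fgf8 had 68.2, 79.6 and 60.3 in LIF+PD+24hrCH, against 38.0, 16.7 and 19.7 in LIF+PD. For either gene every LIF+PD+24hrCH array lay above every LIF+PD array, 2.77-fold for Evx1 and 2.97-fold for Fgf8 by the means of the log2 values. Neither passed after adjustment (1.47 ± 0.25 on the log2 scale, adjusted p = 0.168 for Evx1, and 1.57 ± 0.36, adjusted p = 0.284 for Fgf8), in a contrast that called 0.342% of all probes. An exact permutation test over the 3 against 3 arrays gave a two-sided p of 0.1 for each gene, the smallest this design allows. The single arrays gave 41.2 for Evx1 and 25.7 for Fgf8 in PD+CHIR, and 27.2 for Evx1 and 5.1 for Fgf8 in LIF+CHIR, with no replicate. Naive markers summed to 16634 to 18143 in LIF+PD+24hrCH, against 16946 to 18319 in LIF+PD, and none of the 7 was called. The formative markers summed to 2803 to 3056 in LIF+PD+24hrCH, against 3891 to 4674 in LIF+PD, without overlap, and Otx2 was 3.11-fold lower (adjusted p = 0.0215), so the cultures also differed in these markers, whose part was not tested. Levels of this set are not set against those of the 39 arrays, which were normalised apart.

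**Figure D4:**
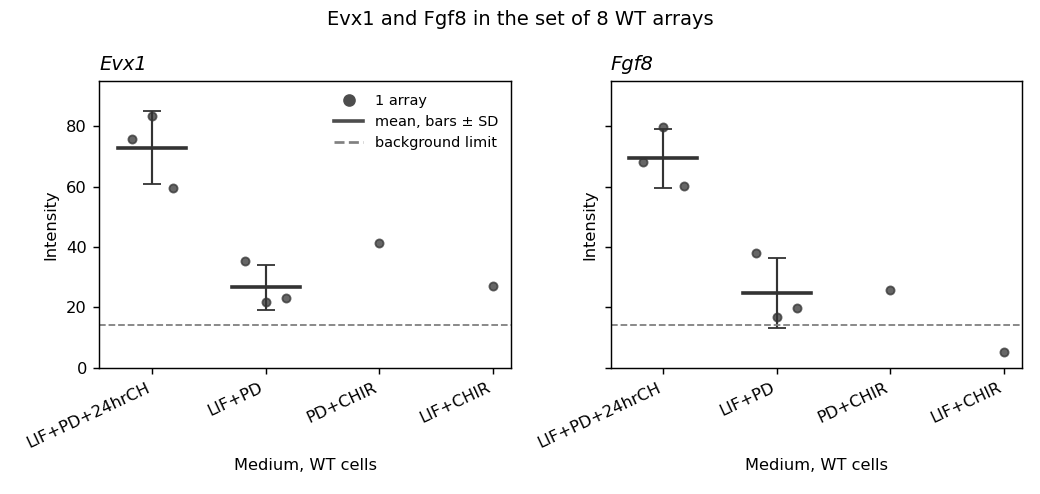
Intensity of Evx1 and Fgf8 (vertical axis) in the 8 WT arrays by medium (horizontal axis), with a point per array, mean bars and SD whiskers where there are 3 arrays, and the background limit of 14.3 as a dashed line. The LIF+PD+24hrCH arrays lie between 59.7 and 83.4, all above the LIF+PD arrays, which lie between 16.7 and 38.0.

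Eomes was dim in every group, and its single call among the contrasts lay between EpiLC and ESC of 3XKO. In ESC it averaged 26.2 ± 12.4 in 4XKO, 21.5 ± 5.28 in 3XKO and 24.5 ± 0.987 in KO, against 21.9 ± 3.39 in WT (SD, n = 3 each), with no line called against WT. It had 5.0, 3.7 and 11.6 in 3XKO EpiLC, against 19.0, 27.6 and 18 in 3XKO ESC, at least 1.55-fold lower (-1.82 ± 0.43 on the log2 scale, adjusted p = 0.00135). That call was lost with values floored at the background limit (adjusted p = 0.0825) and with the spread of these 6 arrays alone (adjusted p = 0.0709). In WT it had 8.7, 16.0 and 7.9 in EpiLC, against 22.5, 18.2 and 24.9 in ESC, without overlap but not called (-1.07 ± 0.43, adjusted p = 0.0603). KO kept 14.4, 18.8 and 26.8 in EpiLC, against 23.8, 24.0 and 25.6 in ESC. Its response to CHIR99021 was called in no line, the difference nearest to it being 1.10 in 3XKO (95% interval 0.22 to 1.98, adjusted p = 0.171). In the 8 WT arrays the single LIF+CHIR array, at 17.7, was the only one above the limit.

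Mixl1, Foxa2 and Mesp1 gave no value above background. Across the 39 arrays the highest reading was 6.2 and 6.5 for the Mixl1 probes, 9.4 and 2.8 for the Foxa2 probes and 6.6 for Mesp1, and across the 8 arrays it was 1.6 and 2.9, 2.6 and 4.2, and 7.6. Both probes of Mixl1 and both of Foxa2 were alike in this. Mesp1 was called once, in EpiLC+CH, where it had 3.5, 6.6 and 2.0 in 4XKO, against -2.6, -1.6 and -1.6 in WT (1.84 ± 0.52 on the log2 scale, adjusted p = 0.0106). Both sides are under the limit, so no fold is given, and with values floored at the limit the difference is 0. Without 4XKO EpiLC+CH replicate 2 it was not called (adjusted p = 0.0909). A low reading on these arrays does not show that a transcript is absent.

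By level, Evx1 ran from WT EpiLC+CH (71.8 ± 5.01) and ContinuedCH (54.9 ± 5.38) through 4XKO EpiLC (33.6 ± 4.65) and 3XKO EpiLC+CH (32.6 ± 6.79) to WT EpiLC (9.83 ± 1.14). None of the 12 steps between neighbours in that order was called. Fgf8 had 1 called step among its 12, between 3XKO EpiLC+CH at 59.7 ± 20.3 and 4XKO ESC at 8.70 ± 0.173 (adjusted p = 0.00173), and Eomes none. The genes with the most similar pattern over the 13 group means, among 9228 compared on log2 intensities floored at the limit, were Plagl2 (r = 0.945), Cask (r = 0.907) and Gad1 (r = 0.887) for Evx1. For Fgf8 they were Rtl8c (r = 0.995), Ido1 (r = 0.984) and Itga1 (r = 0.980), and for Eomes Gsc (r = 0.957), Pigk (r = 0.954) and Pgap3 (r = 0.952). Evx1 and Fgf8 themselves correlated at r = 0.629 over these groups, which share arrays, lines and normalisation. With that floor, Fgf8 stood above the limit only in WT EpiLC+CH and 3XKO EpiLC+CH, so its r values rest on those groups. Gsc, a homeobox gene of the anterior streak, reached 393 in KO ESC and 1.27 in 3XKO EpiLC, the ends of its range.

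Other streak and mesendoderm genes were counted on a list of 30, of which 28 were measured. No probe was matched by name to T, the textbook streak marker, or to Msgn1, which does not show that the arrays lack one. In WT, 10 of the 28 were higher with CHIR99021 and 1 was lower, where 3.26% of all probes were higher and 3.25% lower, with a median of 0.46 on the log2 scale against 0 for all probes. Wnt8a, a streak Wnt ligand, averaged 285 ± 33.8 in WT EpiLC+CH and 10.2 ± 2.10 in WT EpiLC (SD, n = 3 each), at least 20.8-fold higher (adjusted p = 1.67e-06). Nodal, the ligand that patterns mesendoderm, rose 4.72-fold, and its feedback inhibitors Lefty1 and Lefty2 rose 2.82-fold and 3.63-fold. Fst, an antagonist of activin, rose 14.9-fold, and Sp5, a direct Wnt target, at least 72.0-fold. Fgf17, of the same ligand subfamily as Fgf8, averaged 119 ± 12.4 in WT EpiLC+CH and 37.7 ± 4.94 in WT EpiLC, a 3.16-fold rise, while Fgf4 was 2.10-fold lower. Gsc and Wnt3a were called higher too, at mean levels below the limit.

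The other lines were counted on the same list. In 3XKO 11 were higher and 2 lower (median 0.48, with 2.97% and 2.88% of all probes), among them Nodal (2.54-fold), Lefty2 (4.91-fold) and Fst (7.61-fold). In KO 3 were higher and 1 lower (median -0.16, with 0.366% and 0.568% of all probes), with Sp5 at least 18.6-fold higher, Cdx1, a homeobox Wnt target, 3.21-fold higher and Lefty1 1.66-fold lower. In 4XKO 0 of 28 were called (median -0.17, with 0.860% and 1.30% of all probes). Differences from the WT response were called for 8 of 28 in KO, all lower (0.732% of all probes higher and 1.30% lower), and for 9 in 4XKO, all lower (1.72% and 2.62%). In 3XKO 4 were called (0.323% and 0.370%), with Bmp4 higher and Nodal, Sp5 and Tbx3 lower. In WT ContinuedCH, 6 of 28 were higher than in EpiLC+CH and 5 lower (8.81% and 7.95% of all probes). Wnt8a averaged 8.13 ± 2.97 there, against 285 ± 33.8 in WT EpiLC+CH, and Fst 106 ± 9.21 against 1112 ± 99.2, whereas Lefty2 was 4.76-fold and Bmp4 3.77-fold higher in ContinuedCH. In 4XKO EpiLC, 11 of 28 were above WT EpiLC and 0 below (10.3% and 9.69% of all probes), among them Lefty2 (10.7-fold), Bmp4 (4.85-fold), Fgf17 (3.53-fold) and Nodal (3.40-fold). The list summed to 2657.8 to 2971.8 in 4XKO EpiLC, against 957.6 to 1064 in WT EpiLC. It summed to 3030.4 to 3175.4 in KO EpiLC, where Evx1 was not called against WT, so a raised sum was not particular to 4XKO.

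**Figure D5:**
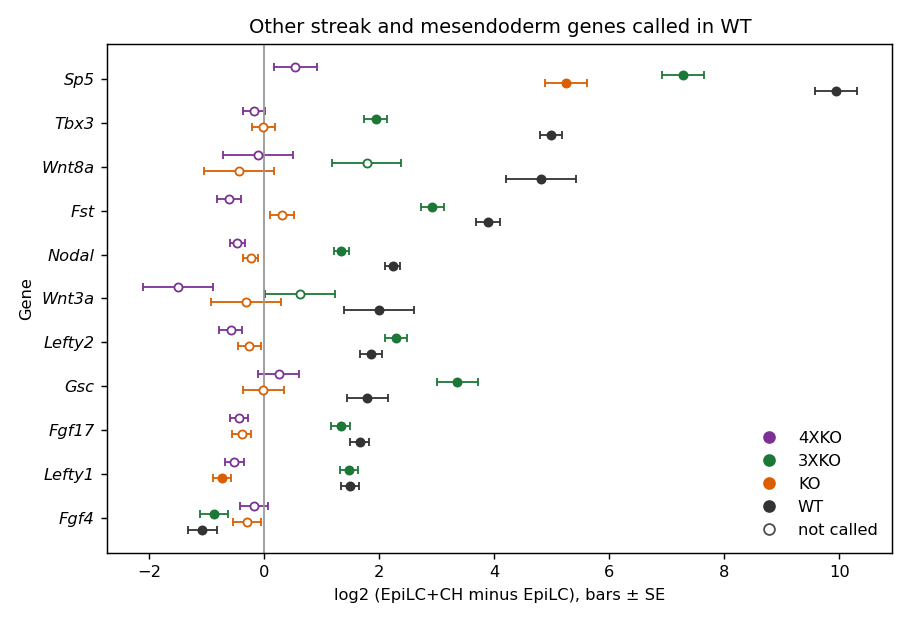
Response to CHIR99021 (log2 of EpiLC+CH minus EpiLC, horizontal axis, bars ± SE) of the 11 further streak and mesendoderm genes called in WT, in the 4XKO, 3XKO, KO and WT lines, filled where called. In 4XKO no point is filled, in KO those of Sp5 and Lefty1 are, and the WT points reach 9.94 for Sp5, a log2 value that depends on the floor of 1.

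Genes around the node and definitive endoderm, where Foxa2 acts, split in WT, with 2 of 17 higher and 3 lower, where 3.26% of all probes were higher and 3.25% lower. This list, like the others, was chosen with earlier results of these data known, so its counts are not independent of those results. Trh, a hormone precursor, averaged 6986 ± 597 in WT EpiLC+CH and 658 ± 44.8 in WT EpiLC (10.6-fold), and Foxa3, a forkhead relative of Foxa2, rose 1.43-fold. Chrd, a BMP antagonist of the node, fell 2.21-fold and Otx2, an anterior homeobox gene, 1.48-fold. The other lines had 1 higher and 0 lower in 4XKO (0.860% and 1.30% of all probes), 1 and 2 in 3XKO (2.97% and 2.88%), and 0 and 1 in KO (0.366% and 0.568%), and the same shares of all probes apply to the lists that follow. Among 15 genes of FGF signalling, Egr1, an immediate early gene, rose 3.14-fold in WT and Spred1 1.34-fold, while the phosphatase genes Dusp4 and Dusp6 fell 2.54-fold and 1.40-fold and the receptor gene Fgfr2 at least 2.42-fold. FGF genes were called 0 times higher and 3 lower in 4XKO, 1 and 2 in 3XKO, and 0 and 0 in KO. In WT ContinuedCH, 7 of 15 were lower than in EpiLC+CH and none higher (7.95% and 8.81% of all probes), with Egr1 at 95.9 ± 12.1 against 701 ± 18 and Dusp4 at 154 ± 17.2 against 819 ± 32.1 (SD, n = 3 each). Fgf8 was below background both in WT ContinuedCH and in WT EpiLC. The FGF list summed to 3267 to 3476.5 in WT ContinuedCH and 6849.9 to 7273.5 in WT EpiLC, against 5656.9 to 5979.9 in WT EpiLC+CH. A link between Fgf8 and these genes was not tested. Of 14 measured genes that feed Nodal and Wnt signals in, the Wnt target Axin2 rose 10.1-fold in WT, Porcn, needed for Wnt secretion, 6.34-fold and the receptor gene Fzd10 5.76-fold. Axin2 rose in 3XKO (5.32-fold) and in KO (2.09-fold), where Evx1 and Fgf8 were not called, and in 4XKO none was higher and 2 were called lower. These were Lef1, below background in both 4XKO groups, and Tcf7l2, at 25.7 ± 3.70 in 4XKO EpiLC+CH against 43.0 ± 11.7 in 4XKO EpiLC, with 29.4 ± 5.06 against 42.1 ± 6.81 in the same WT groups (not called). In LIF+PD+24hrCH Axin2 averaged 320 ± 24.1, against 26.9 ± 8.03 in LIF+PD (12.2-fold, adjusted p = 0.029).

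Markers of other cells that use some of these genes were counted beside them, in WT EpiLC+CH against WT EpiLC. Of other lineages, 10 extraembryonic endoderm markers summed to 126 to 153 in EpiLC+CH, against 238 to 262 in EpiLC, with 0 higher and Dab2 lower, and with Gata4, Sox17, Sox7, Ttr and Afp below background in every array of both. The 7 trophoblast markers summed to 85.1 to 101 in EpiLC+CH, against 50.3 to 87.9 in EpiLC, with Tfap2a higher and with Elf5, Cdx2 and Hand1 below background in both. The 6 neural markers summed to 156 to 198 in EpiLC+CH, against 106 to 128 in EpiLC, with En2 higher and Sox1 and Pax6 below background in both. The 5 fibroblast markers summed to 112 to 156 in EpiLC+CH, against 227 to 245 in EpiLC, with Dcn lower and Col1a1 and Col1a2 below background in both. The 7 naive markers summed to 4791 to 5217 in EpiLC+CH, against 2061 to 2220 in EpiLC, with all 7 higher, and 6 of the 7 rose in 3XKO and 0 in KO and 4XKO. The lists share genes: Tbx3 is on both the naive and the streak list, and Otx2 on both the formative and the node list. Gata4, Gata6 and Sox17 are on the node and extraembryonic endoderm lists, and Pdgfra on the streak and extraembryonic endoderm lists. Cdx2 and Hand1 are on the streak and trophoblast lists, and Shh on the node and neural lists. The 5 formative markers summed to 13524 to 13808 in WT EpiLC+CH, against 19701 to 21904 in WT EpiLC, with Sall2 4.21-fold, Otx2 1.48-fold and Dnmt3b 1.36-fold lower. Fgf5 was 2.74-fold and Pou3f1 2.67-fold lower without being called (adjusted p = 0.170 and 0.0665). Of 3 general pluripotency markers, Sox2 was 3.02-fold and Nanog 2.39-fold higher, and Pou5f1 was not called. The part of any of these markers in the Evx1 and Fgf8 results was not tested.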

How the data were processed

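RNA of the ES cell lines was measured on Illumina mouse arrays. The deposited intensities are the authors' processed values, and the values themselves show a background subtraction (negative values) and quantile normalisation in 2 sets, of 39 and 8 arrays. The submitters' processing notes name limma and lumi, without a version or a role. Symbols came from the platform annotation, with 23978 probes carrying 1 symbol and 1719 none. The 6 genes and all lists were chosen with earlier results of these data known.

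Intensities were floored at 1, put on the log2 scale, quantile normalised again and fitted with limma 3.58.1 in R 4.3.3, with a mean per group over all arrays of a set, and p-values were Benjamini-Hochberg adjusted over all 25697 probes (called under 0.05). All adjusted p-values come from this limma fit. Levels are on the deposited intensity scale, and log2 differences and the folds made from them are on the fitted scale. A group was below background when all its arrays were under the limit, and a fold bound was then the other group's geometric mean against the limit. Genes outside the 6 were counted by lists and named from those called, or as the 3 of highest Pearson correlation over the 13 group means. The precision is limited by the number of arrays.

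On data simulated for WT EpiLC+CH minus EpiLC over 25697 probes, calls were made for 62% of 50 probes changed 1.5-fold, 72% of 50 changed 2-fold, 94% of 50 changed 4-fold and 100% of 50 changed 8-fold, with 14 calls among 25497 unchanged probes. The changed probes were drawn only from those with a mean log2 intensity above the background limit. These rates therefore do not cover dimmer probes, such as those of Mixl1, Foxa2 and Mesp1. Same-numbered replicates deviated together (every r over 0.1) in 3 of 22 contrasts, with a median r of 0.0739 over all. The 3 were WT EpiLC+CH minus EpiLC (r = 0.11, 0.22 and 0.11), KO minus WT in ESC and 4XKO minus WT in EpiLC. The main fit did not pair replicates. Alternatives were no second normalisation, cyclic loess, a floor at the limit, leaving out the dimmest probes, a trended and robust prior, the replicate number as a block, the spread of the compared groups alone, averaging the closest pair of KO EpiLC arrays, and leaving out each array.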

Additional observations from a re-analysis of the deposited data

Results flagged for a closer look

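The CHIR99021 response of Evx1 differed between lines by a test of the difference itself, by -2.42 on the log2 scale between KO and WT, by -3.77 between 4XKO and WT, and by -2.32 between 4XKO and 3XKO (first line minus second). Evx1 was higher with CHIR99021 in all 3 arrays of WT and lower in all 3 of 4XKO. The change of Evx1 between EpiLC and ESC was larger in 4XKO than in WT by 2.31. The Fgf8 response differed by -4.11 between KO and WT, by -4.81 between 4XKO and WT, by 4.63 between 3XKO and KO, and by -5.33 between 4XKO and 3XKO. These Fgf8 sizes use values floored at 1, and flooring at the background limit gives -2.19, -2.19, 2.07 and -2.07. For Evx1 that floor gives -1.94, -3.29 and -2.08 for the responses, in the order above, and 1.69 for the change between EpiLC and ESC.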

How the results depend on the processing

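No called direction reversed under any alternative. The counts below are of the 6 genes called. When the spread came from the compared groups alone, the count was 0 for 3XKO EpiLC+CH minus EpiLC, 0 for EpiLC minus ESC in 4XKO, 3XKO and WT, 0 for 4XKO minus KO in EpiLC, 1 for 4XKO minus 3XKO in EpiLC+CH, 1 for the 4XKO minus WT response and 1 for KO minus WT in EpiLC. With a floor at the background limit it was 1 for 3XKO and 2 for 4XKO EpiLC minus ESC, 1 for 4XKO EpiLC+CH minus EpiLC and 1 for the 3XKO minus WT response. Without the dimmest probes it was 2 for 4XKO and 2 for WT EpiLC minus ESC, 1 for 4XKO EpiLC+CH minus EpiLC, 1 for KO minus WT in EpiLC, 1 for KO minus WT in ESC and 1 for the 3XKO minus WT response. For 3XKO EpiLC minus ESC it was 1 with cyclic loess, with the trended and robust prior and with the KO EpiLC pair averaged. The trended and robust prior gave 1 for 4XKO minus KO in EpiLC+CH. Replicate numbers as a block, which share only a number in most contrasts, gave 1 for 3XKO EpiLC minus ESC (Evx1, adjusted p = 0.0513) and 1 for 4XKO minus KO in EpiLC+CH (Mesp1, below background), and changed no other call of the 6 genes. Of 66 same-numbered pairs, 32 correlated best with their own number.

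Leaving out 1 array at a time gave 0 to 1 called genes for KO, 3XKO and 4XKO minus WT in ESC, for KO minus WT in EpiLC, for 4XKO minus KO in EpiLC and in EpiLC+CH, for 4XKO EpiLC+CH minus EpiLC, for KO EpiLC minus ESC and for the 3XKO minus WT response. It gave 1 to 2 for 4XKO minus 3XKO in EpiLC+CH and for EpiLC minus ESC in 3XKO and 4XKO, 0 to 2 for WT EpiLC minus ESC, 2 to 3 for 4XKO minus WT in EpiLC+CH and for 3XKO EpiLC+CH minus EpiLC. The calls of Evx1 and Fgf8 in WT EpiLC+CH minus EpiLC, and in the KO and 4XKO minus WT responses, held without any 1 array.

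Over all probes, the spread of those groups alone took the calls of EpiLC+CH minus EpiLC to 775 in WT (1674 with all groups), 26 in KO (240), 554 in 3XKO (1504) and 44 in 4XKO (555). It took those of 4XKO minus KO in EpiLC to 170 (1017), of KO, 3XKO and 4XKO minus WT in ESC to 1224 (2412), 2107 (3644) and 464 (1453), of 3XKO minus WT in EpiLC+CH to 2759 (4525), of 4XKO minus KO there to 652 (1445), of ContinuedCH minus EpiLC+CH to 2526 (4306), and of the responses 3XKO minus WT, 3XKO minus KO and 4XKO minus 3XKO to 62 (178), 384 (588) and 633 (953). The floor at the limit gave 839 for the KO minus WT response (523), 422 for 3XKO minus WT (178), 898 for 3XKO minus KO (588) and 8 for LIF+PD+24hrCH minus LIF+PD (88), where the block gave 0. Averaging the KO EpiLC pair gave 101 for KO EpiLC+CH minus EpiLC. The cause of these shifts was not tested. Signals near background limit what can be seen of Mixl1, Foxa2, Mesp1 and Eomes.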
